A study of Drosophila melanogaster with 2 samples.

Results

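Noncoding RNA (ncRNA) genes make transcripts that are used as RNA and not translated into protein. The chromatin regions described here are those of the forkhead-family transcription factor Crg-1 whose summit, the position of highest signal, lay within 500 bp of a start site of an annotated ncRNA gene and more than 500 bp from every protein-coding start site. They numbered 636 of the 30000 candidate regions that the authors listed for both replicates pooled, or 2.12%. Of these, 67 belonged to the thresholded set, the 3707 regions that passed the authors' filter on reproducible rank, and they are described first throughout. The thresholded set was also the 3707 regions of highest pooled signal. The data came from 1 group of 2 biological replicates, numbered 2 and 3, of whole adult Drosophila melanogaster of both sexes mixed, of unknown age. All flies, of the strain Crg-1-GFP, carried Crg-1 fused at its C terminus to GFP, and an antibody against GFP was used for chromatin immunoprecipitation followed by sequencing. No untagged flies were analysed here, and which promoter drives the transgene is not stated. The replicates came from separate biosamples of 1 strain, so the spread between them may be partly technical, and a signal from a few cell types cannot be told apart from a weak signal in many.

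Forkhead factors bind DNA through a winged-helix domain, most often at words related to GTAAACA. Crg-1 is a Drosophila member that was found as a gene with daily cycling expression. The ncRNA class of the Drosophila annotation is mixed. It holds long ncRNAs, antisense RNAs that overlap a coding gene on the other strand, host transcripts of small nucleolar RNAs (snoRNAs), structural RNAs and microRNA (miRNA) entries. The start of a miRNA entry is an end of the hairpin or of the mature RNA, not the start of the longer primary transcript.

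The summit sequences of 9 thresholded regions are shown as examples. Forkhead words are commoner among them than in the whole set, where 24 of 67 thresholded summits held one. The first 2 sequences are from the strongest regions, and neither held a word of the 6 motifs searched. The third is a promoter of Hsromega, whose summit was 1 bp downstream of a start, and the other 6 carry forkhead words. Each line gives 101 bases of the plus strand of the dm6 build centred on the summit. Capitals mark the motif words, searched on both strands. The forkhead words were GTAAACA with its close variants GTAAATA as well as ATAAACA and further the word ATAAATA. The promoter words were TATCGATA for the DNA replication-related element (DRE) and GGTCACACT for the core promoter element Motif 1. The remaining words were CACGTG for the E-box, then GAGAG for the binding site of GAGA factor, and lastly TATAAA for the TATA box. ATAAATA overlaps the TATA box word where it follows a T, as it does at Hsromega. The regions lie at chr3R:29214421-29214521 (CR31044), chr2L:14024028-14024128 (CR31840), chr3R:21296572-21296672 (Hsromega), chr3R:8819698-8819798 (CR43130), chrX:3777346-3777446 (mir-4962-RA), chr3L:17401048-17401148 (noe), chrX:9687873-9687973 (CR42657), chr3L:8692610-8692710 (CR44526) and chrX:3546306-3546406 (CR34335).
lncRNA:CR31044: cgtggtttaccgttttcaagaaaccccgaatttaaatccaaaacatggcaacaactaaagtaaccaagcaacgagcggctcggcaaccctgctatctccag
lncRNA:CR31840: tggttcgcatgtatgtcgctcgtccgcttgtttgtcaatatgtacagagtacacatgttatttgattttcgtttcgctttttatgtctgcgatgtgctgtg
lncRNA:Hsromega: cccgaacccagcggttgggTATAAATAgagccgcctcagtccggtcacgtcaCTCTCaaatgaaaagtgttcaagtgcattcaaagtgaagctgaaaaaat
lncRNA:CR43130: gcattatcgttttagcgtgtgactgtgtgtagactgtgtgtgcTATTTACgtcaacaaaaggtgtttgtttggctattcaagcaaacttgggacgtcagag
mir-4962-RA: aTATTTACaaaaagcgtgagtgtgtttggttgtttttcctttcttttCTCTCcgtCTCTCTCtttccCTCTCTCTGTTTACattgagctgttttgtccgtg
lncRNA:noe: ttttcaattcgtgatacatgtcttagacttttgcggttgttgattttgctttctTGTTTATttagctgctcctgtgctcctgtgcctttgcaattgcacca
lncRNA:CR42657: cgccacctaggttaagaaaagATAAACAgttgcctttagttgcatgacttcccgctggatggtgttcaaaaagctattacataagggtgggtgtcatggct
lncRNA:CR44526: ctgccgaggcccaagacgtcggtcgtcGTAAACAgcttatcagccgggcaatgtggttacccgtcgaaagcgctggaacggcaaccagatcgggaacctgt
lncRNA:CR34335: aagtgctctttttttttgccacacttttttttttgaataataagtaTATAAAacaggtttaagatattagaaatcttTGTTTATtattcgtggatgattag

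The first comparison asked how often a candidate region at an ncRNA start reached the thresholded set. It did so in 67 of 636 cases, or 10.5% (95% Wilson interval 8.38 to 13.2). Among all 30000 candidates the share was 12.4%, which lies within that interval. At protein-coding starts 2542 of 10303 regions were thresholded, or 24.7% (23.8 to 25.5), so that the share at ncRNA starts was 14.1 percentage points lower (Newcombe interval of the difference -16.5 to -11.4). Away from both kinds of start the share was 5.76% (5.44 to 6.1), and the ncRNA starts lay 4.77 points above it (2.59 to 7.42). Regions with both an ncRNA and a protein-coding start in reach, which are outside the 636, were thresholded in 106 of 392 cases, or 27% (22.9 to 31.6). The ncRNA-only regions therefore stood between the other 2 classes, with intervals of the differences that left out 0 on both sides. Inside protein-coding genes, ncRNA starts had 8.17% (5.59 to 11.8) and regions away from both starts 5.52% (5.17 to 5.88), with overlapping intervals. Outside such genes the shares were 12.7% (9.56 to 16.8) and 6.95% (6.12 to 7.88). All intervals cover counting error over regions only. Overlapping entries are not independent, and the 636 regions formed 556 separate sites, 64 of them with a thresholded region.

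The signal of the thresholded regions lay in the range of the other classes. This signal, the height of a region in the authors' units, had a median of 162 with quartiles of 133 and 219 and ran from 109.8 to 804.4. The thresholded regions at protein-coding starts had a median of 170, and those away from both kinds of start had 149. The 569 ncRNA-start regions outside the thresholded set had a median of 44.3 and ran from 29.4 to 108.9, close under the lowest thresholded signal of the whole list, 109.7. The thresholded regions were the 3707 of highest pooled signal, so these limits follow from that cut. In width, 60 of the 67 were 440 bp, and the 7 narrower ones had signals of 374.7 or more.

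Distance to the start is bounded at 500 bp by the rule, with the same limit for ncRNA and protein-coding starts, so the distances are given as a description. The median at ncRNA starts moved with the limit, to 122 bp at 250 bp and 420 bp at 1000 bp. With 500 bp, the thresholded summits lay a median of 246 bp from the ncRNA start (quartiles 122 and 354), against 87 bp (40 and 166) from the start at protein-coding genes. Within 100 bp of the start lay 14 of 67, or 20.9% (12.9 to 32.1), against 1440 of 2542, or 56.6% (54.7 to 58.6), which is 35.8 points fewer (-44 to -24.4). Beyond 250 bp lay 32 of 67, or 47.8%, against 12.6% at protein-coding starts, a difference of 35.2 points (23.6 to 47). The 569 other ncRNA-start regions had a median distance of 206 bp (90 and 345), and the 7761 other regions at protein-coding starts had 147 bp (56 and 278). At protein-coding starts the thresholded summits thus lay closer to the start than the other candidates, and at ncRNA starts they lay no closer, with a median of 246 bp against 206 bp. Coordinates of ncRNA starts come from the annotation, and how precisely they are mapped was not tested.

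The thresholded share was also taken at each distance. It was 8.14% (4 to 15.9) within 50 bp of an ncRNA start, 8.33% from 51 to 100 bp, 9.77% from 101 to 200 bp, 11.9% from 201 to 300 bp, 13.3% from 301 to 400 bp and 10.8% (6.13 to 18.3) from 401 to 500 bp. All 6 intervals overlapped. At protein-coding starts the share was 30.5% (28.7 to 32.3) within 50 bp and 34% from 51 to 100 bp. It was 27%, 16.8% and 11.4% in the next 3 steps and 10.5% (8.62 to 12.8) from 401 to 500 bp. The classes therefore differed most near the start, and from 201 bp outward their intervals overlapped.

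The nearest protein-coding start was also considered. The thresholded share of the ncRNA-start regions was 10.4% (6.41 to 16.5) at 501 to 1000 bp from a protein-coding start, 11.6% at 1001 to 2000 bp, 9.24% at 2001 to 5000 bp and 11.2% (7.19 to 17) beyond 5000 bp, and the 4 intervals overlapped. Regions at neither kind of start had 8.25% (7.39 to 9.2), 5.88%, 5.57% and 4.28% (3.78 to 4.84) over the same steps. The intervals of the 2 classes were apart from 1001 to 2000 bp and beyond 5000 bp, and they overlapped in the other 2 steps. Of the 67 thresholded summits, 18 lay over 5000 bp from every protein-coding start, and 12 lay over 10000 bp away.

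**Figure D1:**
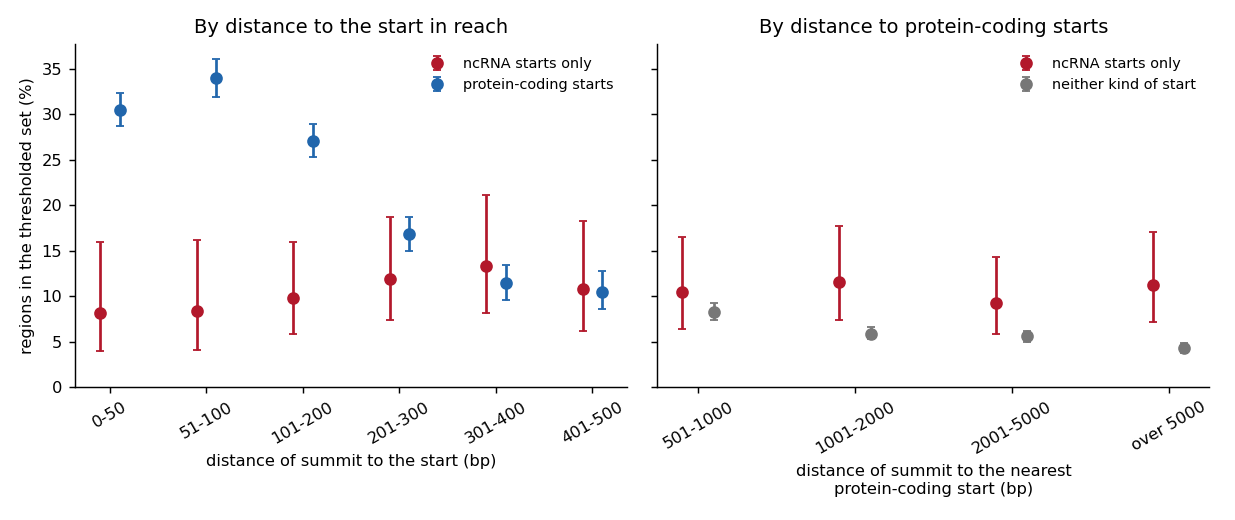
Share of candidate regions in the thresholded set (%) by distance in bp of the summit to the start in reach (left) and to the nearest protein-coding start (right), for ncRNA starts only and the comparison class, with points for shares and bars for 95% Wilson intervals. The share at ncRNA starts stayed between 8.14% and 13.3% in all steps, and at protein-coding starts it was highest, 34%, from 51 to 100 bp.

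The side of the start differed between thresholded and other regions. Of the 67 thresholded summits 49 lay upstream of the ncRNA start, or 73.1% (61.5 to 82.3), and 18 lay downstream. The side was taken at the nearest start. An upstream summit can therefore lie inside an ncRNA gene that has an earlier start, as at lncRNA:CR43626 and lncRNA:CR43650. Of the other 569 ncRNA-start regions 285 lay upstream, or 50.1% (46 to 54.2), so that the thresholded share was 23 points higher (10.7 to 33.1). At protein-coding starts 76% of thresholded summits (74.3 to 77.6) and 52.6% of the others lay upstream. The difference between thresholded ncRNA and protein-coding starts was -2.87 points, with an interval of -14.6 to 6.43. The upstream summits at ncRNA starts were spread out, with 11 within 100 bp and 38 from 101 to 500 bp upstream.

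**Figure D2:**
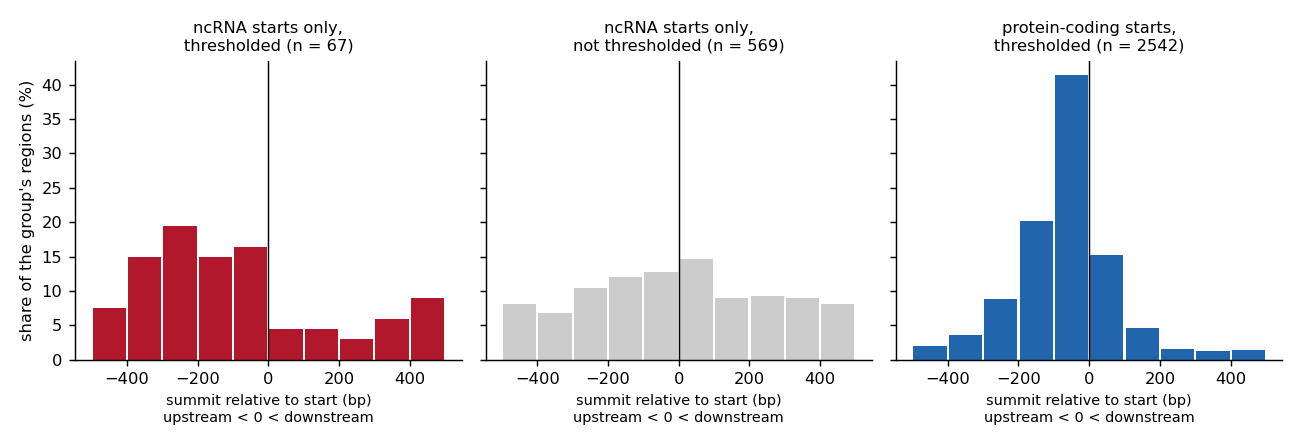
Share of each group's regions (%) in 100 bp steps of summit position relative to the start, negative upstream, for thresholded regions at ncRNA starts only, the other regions at ncRNA starts only and thresholded regions at protein-coding starts. The first group held 16.4% in the 100 bp just upstream of the start, and the protein-coding group held 41.4% there.

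The thresholded regions lay mostly between genes and in introns of coding genes. Of the 67, 42 were intergenic, 23 lay in an intron of a protein-coding gene and 2 in a 5' UTR, and none lay in a coding exon or a 3' UTR. The intronic share, 34.3%, was near the 36.1% of all 3707 thresholded regions, of which 57.1% lay inside a protein-coding gene. Shares in coding exons and UTRs over all thresholded regions are not given here. A count of 0 of 67 allows a share of up to 4.48% by 3 counts, or 5.42% by the Wilson interval. The other 569 regions had 288 intergenic, 194 intronic and 7 5' UTR summits, with 48 in coding exons and 32 in 3' UTRs. Inside a protein-coding gene lay 25 of 67, or 37.3% (26.7 to 49.3), against 47.9% of thresholded regions at protein-coding starts and 79.6% of those away from both kinds of start. The difference was -10.6 points (-21.3 to 1.56) from the protein-coding starts, an interval that included 0, and -42.3 points (-53.1 to -30.1) from the regions away from both. Below the threshold the shares were 49.4% at ncRNA starts, 69.2% at protein-coding starts and 83.3% away from both, so a low share at ncRNA starts was not limited to thresholded regions. With respect to the ncRNA gene of the nearest start, 17 of the 67 summits fell in one of its exons, 1 in an intron and 49 outside. Outside it does not mean outside every ncRNA gene. The summits nearest mir-275 and mir-14 lay within the spans of lncRNA:CR43857 and lncRNA:CR43651. Of the 25 inside a coding gene, 16 had the ncRNA on the opposite strand to the host and 9 on the same strand. By arm, the 67 comprised 14 on X, 10 on 2L, 13 on 2R, 13 on 3L and 17 on 3R, and none of the 12 regions on chromosome 4. All 636 had 95, 132, 127, 139 and 131 on those 5 arms, and 12 regions are too few to compare shares. A mobile element was overlapped by 1 of the 67 summits, that at lncRNA:CR45433. Over the whole list it was 2 of 3707 thresholded regions (0.054%) and 127 of the 26293 others (0.483%).

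The thresholded share of the 3 larger kinds of ncRNA lay between 10.3% and 11.3%. Long ncRNAs accounted for 44 thresholded regions of 420 (10.5%, 7.9 to 13.8) and antisense RNAs for 15 of 146 (10.3%, 6.33 to 16.3). The miRNA entries had 6 of 53 (11.3%, 5.29 to 22.6), a share that rests on few regions. The snoRNA hosts had 2 of 4, and the 3 regions at structural RNAs, 6 at other small ncRNAs, 1 at a hairpin RNA and 3 at other entries had none. Inside a coding gene lay 113 of the 146 regions at antisense RNAs (77.4%, 70 to 83.4), which by definition overlap one, and 144 of the 420 at long ncRNAs (34.3%, 29.9 to 38.9).

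Few ncRNA genes had such a region. Among 2705 ncRNA genes whose starts are all over 500 bp from protein-coding starts, 605 had a candidate summit in reach and 70 a thresholded one, or 2.59% (2.05 to 3.26). With limits of 250 bp the share was 1.58% and with 1000 bp 4.27%, and with only the thresholded regions at or above their median signal it was 1.29%. Over all 3261 ncRNA genes, with any thresholded summit in reach, there were 176, or 5.4%, against 3195 of 13945 protein-coding genes, or 22.9%. The counts of genes exceed those of regions where 1 summit reached several starts, as at a miRNA hairpin and its mature products.

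The strongest region stood 91 bp upstream of lncRNA:CR31044, between genes and 5701 bp from the nearest protein-coding start, that of the translation elongation factor gene eEF1gamma. It had a signal of 804.4 in the pooled list (rank 44), with 468.9 in replicate 2 (rank 48) and 335.7 in replicate 3 (rank 37). The region at lncRNA:CR31840, 21 bp downstream of the start and inside its exon, had 752.8, with 425 in replicate 2 and 331 in replicate 3. Both therefore ranked among the strongest of the whole list in each replicate. The files give no function for either RNA.

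The next regions were at lncRNA:CR44274 (chr2R:8943723-8943941), with a signal of 498, and 282 in replicate 2 and 217.7 in replicate 3. The antisense RNA asRNA:CR44429 had 447 (chrX:15298268-15298707), with 262.8 in replicate 2 and 187.8 in replicate 3. Its summit lay in an intron of gce, which encodes a juvenile hormone receptor, on the strand opposite to gce and 521 bp from a start of gce. Among the 67 it is the region nearest to the 500 bp limit for protein-coding starts. The snoRNA host Uhg4 followed with 441 (chr2R:9095104-9095326), 57 bp upstream of its start, with 274.7 in replicate 2 and 160.2 in replicate 3.

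Of the next 5, lncRNA:CR44619 (chrX:12752308-12752417) had 426 with 264 in replicate 2 and 161.4 in replicate 3, and its summit lay 495 bp downstream of the start. The regions at lncRNA:CR44339 and lncRNA:CR44651, both on 2R and upstream of their starts, had 386 and 374.7. That at lncRNA:CR46036 (chr3R:17700436-17700875) had 325.1 and lay in an intron of osa, which encodes a subunit of the Brahma chromatin remodelling complex, opposite in strand. A second thresholded region lay 2771 bp away in osa, at lncRNA:CR46035, with a signal of 214.8. The region at lncRNA:CR44868 (chr2L:15912006-15912445), in an intron of beat-Ib, had 287.2. In each of these the signal was higher in replicate 2 than in replicate 3, as in 64 of all 67. The scale differs between lists, so signals are set against ranks within a list and not between replicates.

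The last of the 15 strongest lay at mir-9377-RB with 270.7, lncRNA:CR43626 with 266.1 and 234.3 in 2 overlapping entries, lncRNA:CR42657 with 242.9 and lncRNA:CR43130 with 234.7. The mir-9377 region (chrX:12665454-12665893) lay 427 bp downstream of the mature entry's start in an intron of Tis11, which encodes an RNA-binding protein of mRNA decay. The CR42657 region lay 658 bp from nej, the gene of the histone acetyltransferase CBP, and a second overlapping entry there had 161. The 15 strongest were all top-ranked in both replicates, with ranks of at most 950 in replicate 2 and 1016 in replicate 3.

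**Figure D3:**
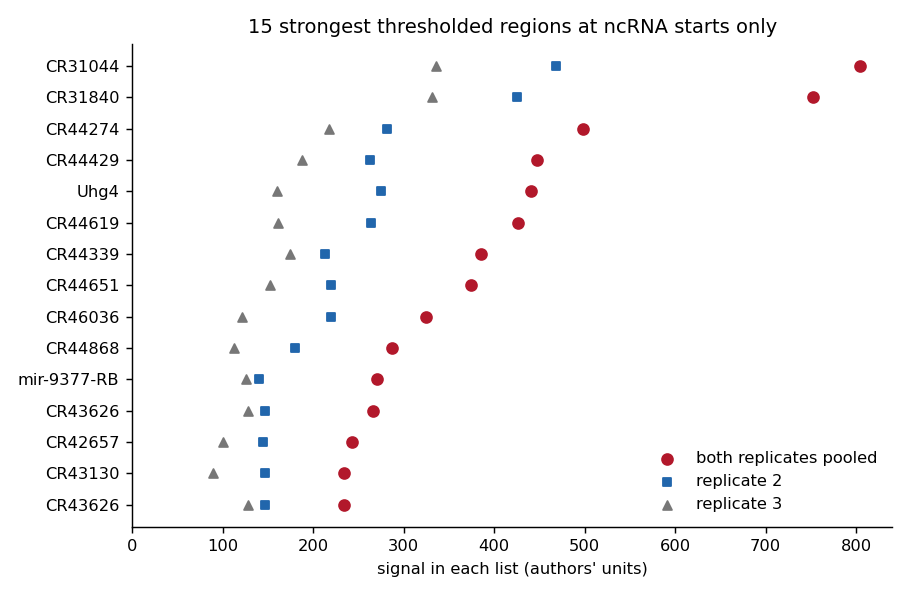
Signal in the authors' units (x axis) of the 15 strongest thresholded regions at ncRNA starts only, 1 row each, in the pooled list, replicate 2 and replicate 3. The pooled value ran from 804.4 at CR31044 to 234.3 at the second entry of CR43626, and replicate 2 was above replicate 3 in every row.

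Of ncRNAs with a known role, Hsromega was in the thresholded set. It gives the heat-inducible nuclear RNA that organises omega speckles. The summit lay 1 bp downstream of a start site, with a signal of 212.4 (rank 1127), and 140 in replicate 2 and 72.2 in replicate 3. A TATA box word began 31 bp before the summit in the sequence shown, overlapped by the forkhead word ATAAATA. A second, overlapping entry 240 bp downstream had a signal of 82.5 and was not thresholded. The list of named long ncRNAs also matched a miRNA hairpin, mir-bft. Of the other 12 entries matched, mir-bft included, 11 had no summit within 500 bp, among them bxd and iab8 of the Hox cluster and yar. For let7C, which carries the let-7 miRNA, the nearest summit lay just outside the limit at 563 bp, with a signal of 348.8.

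The dosage compensation RNAs roX1 and roX2, which act with the MSL complex on the male X chromosome, were both listed below the threshold. The roX1 gene had 2 summits within 500 bp of a start, neither thresholded. That 76 bp upstream of a start had a signal of 68.6, with 31.6 in replicate 2 and 29.3 in replicate 3. The roX2 summit lay 118 bp downstream with 31.3, near the floor of the list, and it was listed in replicate 2 with 33.8 and overlapped no region of replicate 3. The flamenco locus flam, a source of piRNAs that silence transposons, had a summit 146 bp upstream of its start with a signal of 96.5. It was listed with 83 in replicate 2, inside the top 3707 at rank 2600, and overlapped no region of replicate 3. None of these 3 loci was thresholded.

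The snoRNA hosts are transcripts whose introns hold snoRNAs that guide modification of ribosomal RNA. Of 7 Uhg genes 4 had a member region, and those at Uhg4 and Uhg3 were thresholded. Uhg3 had a signal of 126.2, with 78.7 in replicate 2 and 48.9 in replicate 3, and its summit lay 12 bp downstream of the start with an E-box word 5 bp from it. Uhg1 had 75.4 and Uhg7, whose summit fell in a coding exon of RpL23A, had 40.8, both below the threshold. The other 3 have a protein-coding start within 500 bp. Their strongest summits in reach had 208.9 at Uhg2, 91.4 at Uhg5 and 118.9 at Uhg8, so that 4 of the 7 hosts had a thresholded summit within 500 bp. Of 6 structural RNA genes, RNaseMRP with 105.3, sbRNA:1 with 77.4 and RNaseP with 55 were listed below the threshold, and both 7SL genes and the scaRNA gene had no summit in reach.

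The miRNA entries in the thresholded set were mir-9377, mir-4962, mir-275, mir-9378, mir-4974 and mir-14. The mir-4962 region, 12 bp from the entry in an intron of Tlk, had a signal of 226.7, with 114.4 in replicate 2 and 112.2 in replicate 3. The mir-275 region had 180.6, and 1724 bp away lncRNA:CR43857, whose span covers mir-275, had its own region with 132.7. The mir-14 region, 3 bp from the hairpin, had 110.7, the second lowest of the 67. It ranked 3959 in replicate 2, just below the top 3707, and 2896 in replicate 3. The mir-14 miRNA is known from Drosophila for limiting cell death and fat storage.

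The thresholded regions nearest inside the 500 bp limit to an ncRNA start were those of lncRNA:CR43459, at 499 bp with a signal of 115.4, and lncRNA:CR46204, at 496 bp with 171. Those nearest outside were at 511 bp from lncRNA:CR45196 with 142.2 and at 522 bp from lncRNA:CR43973 with 135.1. At the limit to protein-coding starts, lncRNA:CR45668 with 132.4 lay inside at 552 bp from Act5C, and lncRNA:CR43301 with 126.9 lay outside at 499 bp from drn, as did lncRNA:CR30055 with 130 at 441 bp from Sin3A. The 5 strongest regions below the threshold were at lncRNA:CR44331 with 108.9, lncRNA:CR43144 with 108.4, asRNA:CR45281 with 107.5, lncRNA:CR45677 with 106.5 and lncRNA:CR44544 with 106. The lowest thresholded region, at lncRNA:CR44888, had 109.8. The thresholded regions were the 3707 of highest pooled signal, so these neighbouring values follow from that cut.

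The replicates were compared over the same regions. The thresholded set was chosen by reproducible rank in these same lists. Listing and high rank in both replicates, and their rarity among the other regions, are therefore partly fixed by that choice. All 67 thresholded regions were listed in both replicates, and 52 of them, or 77.6% (66.3 to 85.9), overlapped a top-ranked region, one of the 3707 strongest, in both. The share was 78.7% (77.1 to 80.3) at protein-coding starts and 69.1% (66.3 to 71.8) away from both kinds of start. The 15 others were weak, with signals of 109.8 to 154.1, and 9 of them missed the top of replicate 3 and 6 that of replicate 2. The widest split was at lncRNA:CR45241, with 102.1 (rank 1808) in replicate 2 and 30.4 (rank 7370) in replicate 3. Over the 67 regions Spearman's rho between the replicates was 0.752 and Pearson's r of the signals 0.94. This is a description across regions that share libraries and 1 control. Pooled summits lay a median of 3 bp from those of replicate 2 and 15 bp from those of replicate 3. Of the 67, 6 entries at 3 genes overlapped each other in pairs and share their replicate values. Of the 569 other regions, 367 were listed in both replicates and 17 (2.99%) were top-ranked in both.

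**Figure D4:**
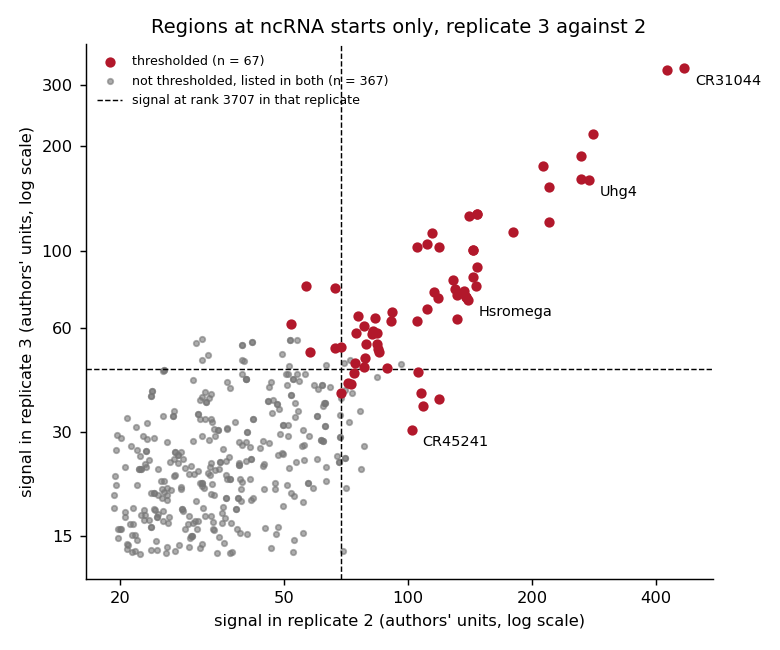
Signal in replicate 3 against replicate 2, both in the authors' units on log axes, 1 point per region at ncRNA starts only, for 67 thresholded regions and the 367 others listed in both replicates; dashed lines mark the signal at rank 3707, 68.8 in replicate 2 and 45.7 in replicate 3. Of the thresholded regions 52 lie above both lines.

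Forkhead words were more frequent at the thresholded summits than beside them. Of the 67 windows of 50 bp on each side, 24 held a word, or 35.8% (25.4 to 47.8), against 22 of 134 windows centred 500 bp away, or 16.4% (11.1 to 23.6). The difference was 19.4 percentage points (6.74 to 32.5). An excess over flanks was also seen over all thresholded regions, at 10.1 points. It was 8.97 points for those at protein-coding starts, 12.2 for those away from both and 1.59 over all 30000 candidates. Intervals of summit against flank, here and below, treat the windows as separate samples, although each region supplied both kinds. Overlapping entries were counted separately. The other ncRNA-start regions had 18.6% at the summit and 18.3% in the flanks, so that the thresholded summits exceeded theirs by 17.2 points (6.23 to 29.5). All 30000 candidates had 16.6% (16.2 to 17) at the summit. Thresholded summits at protein-coding starts had 21.6% (20 to 23.2), 14.3 points below those at ncRNA starts (3.71 to 26.3). Those away from both kinds of start had 29.8% (27.2 to 32.6), and their difference of 6.04 points had an interval that included 0 (-4.75 to 18.3).

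The difference between summit and flank depended on the words and the window. With GTAAACA and ATAAACA alone it was 6.72 points (-2.14 to 17.7), with 30 bp each side 9.7 points (-0.979 to 21.9), and with 100 bp each side 12.7 points (-1.34 to 26.6), each with an interval that included 0. The 4 words read backwards, which share ATAAATA with the forward set, were found at 14 summits (20.9%) and in 23 flank windows (17.2%), a difference of 3.73 points (-7.1 to 16.2). The median GC content was 40.6% both at the thresholded summits and in their flanks. It was 43.6% at the summits of the other ncRNA-start regions and 38.6% at the thresholded summits at protein-coding starts, and the part of GC content in the differences from those classes was not tested. By word, GTAAACA was found at 6 thresholded summits, GTAAATA at 7, ATAAACA at 4 and ATAAATA at 9, against 119, 115, 135 and 250 of the 2542 at protein-coding starts. As shares these were 8.96%, 10.4%, 5.97% and 13.4%, against 8.93%, 9.2%, 7.74% and 9.47% away from both kinds of start. None of the 10 strongest summits held a forkhead word, and 24 of the other 57 did. This split was chosen after its values were seen.

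**Figure D5:**
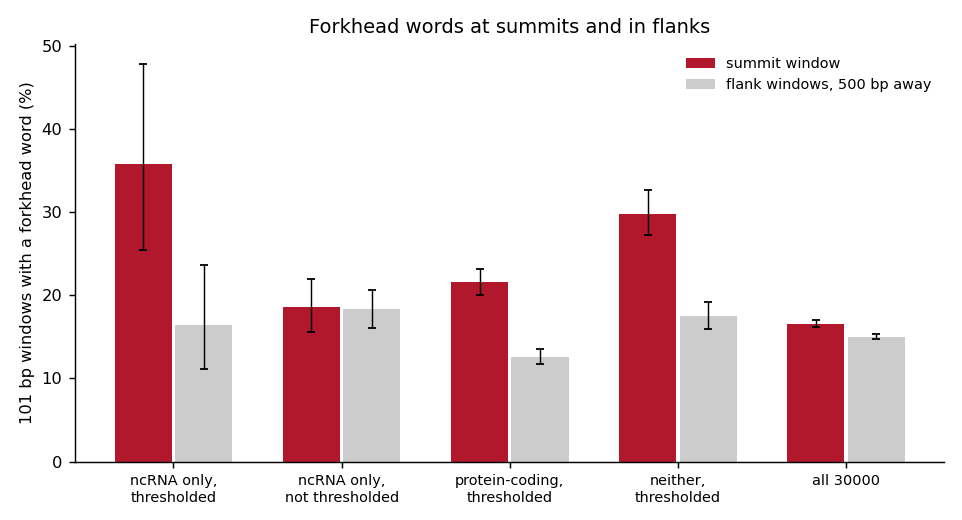
Share of 101 bp windows (%) that hold a forkhead word, at summits and in flanks 500 bp away, with 95% Wilson intervals, for thresholded and other regions at ncRNA starts only, thresholded regions at protein-coding starts and at neither, and all 30000 candidates. The first group had 35.8% at the summit and 16.4% in the flanks.

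Words of housekeeping core promoters were not found at the thresholded summits. The DRE word, bound by the factor DREF, was at 0 of 67 thresholded summits (Wilson interval 0 to 5.42%), against 140 of 2542 (5.51%) at protein-coding starts and 3 of 1098 (0.273%) away from both. The difference from protein-coding starts was -5.51 points (-6.46 to -0.023), an interval that ended close to 0. The Motif 1 word was also at 0 of 67, against 2.12% at protein-coding starts, a difference that was not detectable with 67 regions (-2.76 to 3.32). The GAGA word, bound by the GAGA factor, was at 12 (17.9%, 10.6 to 28.7), against 11% at protein-coding starts, and the interval of the difference, -0.532 to 17.8, included 0. A TATA box word was at 9 (13.4%, 7.23 to 23.6) against 17.1% at protein-coding starts, with an interval of -10 to 6.62. Away from both kinds of start the shares were 16.1% for GAGA and 13.7% for the TATA box. Of the 9, 6 also held a forkhead word. ATAAATA shares letters with TATAAA where it follows a T, so this overlap is partly built into the words. The E-box CACGTG, the site of the clock activators, was at 2. Over all 30000 candidate windows of this length the shares were 1.28% for DRE, 0.76% for Motif 1, 13.5% for GAGA, 11.3% for the TATA box and 1.34% for the E-box. In all, 37 of the 67 summit windows held a word of at least 1 of the 6 motifs. A word is a match of letters and does not show that a factor bound there.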

How the data were processed

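Chromatin immunoprecipitation followed by sequencing was done with an antibody against GFP in whole adult flies, with chromatin sonicated to 200 to 800 bp, per the labels. The authors derived each deposited list from the alignments and 1 shared control, and the thresholded set by irreproducible discovery rate from the replicate and pooled lists, per the deposited file descriptions. Aligner and peak caller names were not given in the sources used here. Signal, as deposited, gives region height in the authors' units. The summit was the deposited start plus the deposited offset. Read depth is unknown. Each dm6 list held 30000 regions, binding and background alike, and the thresholded regions were the 3707 of highest pooled signal. The dm3 lists were not used here.

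Start sites were the 5' ends of all transcripts in Ensembl release 115 on 6 chromosome arms, without mobile elements, 3261 ncRNA genes of 18164. Names of the mature miRNA entries were taken from their transcripts. Sequences came from the RefSeq Release 6 genome. The ncRNA of a region is the gene with the nearest start. Overlap meant at least 1 bp. Intervals are 95% Wilson for shares and Newcombe for differences, tested on simulated data. No significance test was run, since 1 group allows none between conditions. Named genes were those of the 15 strongest thresholded and 5 strongest other regions, of lists of known ncRNAs, and of 2 thresholded regions on each side of a limit. The members and lists were chosen with earlier results of these data known. Alternatives covered distances, start sites, threshold, position, windows, words and each replicate alone. Python 3.11.15, numpy 2.4.6, pandas 2.3.3 and matplotlib 3.10.9 were used.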

Additional observations from a re-analysis of the deposited data

How the results depend on the processing

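Over 8 results and 56 alternatives, 41 values stayed within the 95% interval of the reported value and none changed sign. With each replicate's own list and its 3707 strongest regions, the thresholded share at ncRNA starts lay between 10.7% and 11.3%, the difference from protein-coding starts between -14.5 and -13 points, the share of ncRNA genes between 2.55% and 2.77%, the median distance between 210 and 247 bp, the share inside coding genes between 36.1% and 38.9%, and the upstream share between 66.7% and 70.8%. Limits of 250 bp gave a difference from protein-coding starts of -18.2 points, a gene share of 1.58% and a median distance of 122 bp, and limits of 1000 bp gave -10.6 points, 4.27%, 420 bp and an upstream share of 60.2%. The distances follow from the limits themselves. With the thresholded regions at or above the median signal alone, the thresholded share was 5.35%, the difference -7.93 points and the gene share 1.29%, which follows from the smaller set. Counting any thresholded summit, the gene share was 5.4%. With gene 5' ends only, 49.4% of 77 thresholded regions lay inside a coding gene; the cause was not tested. Overlap in both replicates was 47.8% with the 1853 strongest regions of each and 100% with 7414. The forkhead difference with 2 words was 6.72 points; the cause was not tested. Leaving out miRNA entries and the alternatives for the upstream share were chosen after seeing the data. Without miRNA entries the thresholded share was 10.5% of 583. Limits: with 67 thresholded regions, shares carry wide intervals, the signal comes from 2 replicates that share 1 control, and depth is unknown.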
